A study of Homo sapiens with 12 samples.

Results

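The imprinted miRNA clusters at 14q32 and 19q13 were represented by 104 of the 798 human miRNA probes counted on a NanoString panel, 63 from 14q32 and 41 from 19q13. Members were chosen by the miRNA numbers annotated to the clusters, with every letter and arm, and a probe that names several miRNAs was counted once. Of the 104 probes, 7 name more than 1 miRNA, and the largest names 6. The 2 miR-487b probes were kept with 14q32, which has 61 probes without them, and the probe for miR-134-5p also names miR-6728-5p, a miRNA outside the clusters. The clusters were known from their position and imprinting, and the rule for members used no measured value. Earlier results of these data were known when it was set.

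The study silenced MUC1 in the human acute myeloid leukaemia lines MOLM-14 and THP-1. Cells carried a lentiviral MUC1 specific shRNA or a scrambled control hairpin, and total RNA was taken from successfully transduced cells. The 4 groups were MOLM-14 MUC1 Silenced, MOLM-14 Control, THP-1 MUC1 Silenced and THP-1 Control, with 3 samples each, called silenced and scrambled here. The labels call the samples repeats without saying whether they are separate transductions or cultures, so p-values measure the spread between these samples, which may be technical.

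In embryo, placenta and brain the 14q32 miRNAs are transcribed from the maternal chromosome together with the long noncoding RNA MEG3, opposite to the paternally expressed genes DLK1 and RTL1. This cluster is known to be high in acute promyelocytic leukaemia, while miR-495, one of its members, is known to be low in KMT2A-rearranged acute myeloid leukaemia, the class to which both lines belong. The 19q13 cluster is found only in primates, is transcribed from the paternal chromosome mainly in placenta, and holds many near-identical precursors, some sharing the AAGUGC core of the miR-302, miR-372 and miR-17 families, which repress inhibitors of the cell cycle.

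All 65 miRNA names on the 14q32 probes and 46 of the 52 names on the 19q13 probes matched RefSeq on GRCh38.p14; miR-498, miR-518f-3p, miR-520b, miR-520e, miR-522-3p and miR-527 did not. The matched 14q32 precursors, 43 in all, lay at chr14:100852409-101066786 from MIR770 to MIR656, all on the plus strand, with 5 inside the bounds of RTL1 and 1 inside those of MEG3. The 40 matched 19q13 precursors lay at chr19:53666692-53762418 from MIR512-1 to MIR519A2, also all on the plus strand. The clusters differ in how much their seeds (bases 2 to 8, the part that pairs with a target) repeat. The 14q32 names carry 61 distinct seeds, of which 4 are shared, by 8 miRNAs, while the 19q13 names carry 26, of which 10 are shared, by 30 miRNAs. The mature sequences of the 19q13 miRNAs whose probes reached the highest counts, with relatives of miR-520d-3p (miR-520a-3p and miR-520c-3p) and of miR-519b-5p (miR-526a) below them, are given 5′ to 3′ with the seed in capitals.
miR-520d-3p, chr19:53720149-53720170: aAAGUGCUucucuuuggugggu
miR-520a-3p, chr19:53690933-53690954: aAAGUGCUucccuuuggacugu
miR-520c-3p, chr19:53707506-53707527: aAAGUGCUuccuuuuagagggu
miR-519b-5p, chr19:53695225-53695246: cUCUAGAGggaagcgcuuucug
miR-526a, chr19:53726928-53726949: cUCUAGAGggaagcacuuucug
miR-520f-3p, chr19:53682213-53682234: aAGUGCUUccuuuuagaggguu
miR-520d-5p, chr19:53720111-53720130: cUACAAAGggaagcccuuuc
miR-525-5p, chr19:53697547-53697567: cUCCAGAGggaugcacuuucu

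Counted from the 5′ end, miR-520d-3p and miR-520a-3p share 18 of 22 bases and differ by U11C, U18A, G19C and G20U, all outside the seed. miR-520d-3p and miR-520c-3p also share 18 of 22 bases, with U11C, C12U, G16A and U18A. The 6 miRNAs of the miR-519b-5p probe have the same RefSeq sequence and cannot be told apart by any probe, and miR-526a differs from them by G15A alone. From 14q32, 4 miRNAs with unrelated seeds are shown: miR-495-3p, which had the highest mean of all members, miR-369-3p, the single 14q32 miRNA to reach 30 counts, miR-127-3p, which in mouse is transcribed antisense to Rtl1, and miR-494-3p, which was at the lowest value in every sample.
miR-495-3p, chr14:101033804-101033825: aAACAAACauggugcacuucuu
miR-369-3p, chr14:101065641-101065661: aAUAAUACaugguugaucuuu
miR-127-3p: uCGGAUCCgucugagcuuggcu
miR-494-3p, chr14:101029681-101029702: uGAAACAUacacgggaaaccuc

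The deposited counts totalled 9002 to 20418 a sample over the 798 probes, and the smallest count was 1. No negative control probes were used here, so the level at which a probe reports no RNA is unknown. As a stand-in, 630 probes that stayed above 1 and under 30 counts in all 12 samples were taken as background probes. Silenced MOLM-14 replicate 2 stood apart from its group: its counts over the 798 probes correlated at Pearson r = 0.654 and 0.697 with replicates 1 and 3, which correlated at 0.961 with each other. Its source name also reads MUC2, and that of replicate 3 reads MUC3, whereas title and transduction label read MUC1 for all 3. In 3 groups a pair of samples did not differ beyond the sampling noise at p = 0.05, with a chi-square over degrees of freedom of 0.990 to 1.08 and p of 0.0521 to 0.575 (scrambled MOLM-14 replicates 2 and 3, scrambled THP-1 replicates 1 and 3, silenced THP-1 replicates 1 and 2). Each such pair was counted as 1 sample in means ± SD, which then have n = 2, although the fits kept all 12 samples. Silenced THP-1 replicates 2 and 3 also did not differ (chi-square over degrees of freedom 1.03, p = 0.302), whereas replicates 1 and 3 did.

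Members of both clusters were counted at the level of background in these leukaemia cells. The 14q32 probes had a median mean count of 12.2 and the 19q13 probes one of 14.7, against 13.1 for the 536 background probes outside the clusters and 13.7 for all 694 other probes. Of the 104 members, 94 were themselves among the 630 background probes, 60 of the 63 from 14q32 and 34 of the 41 from 19q13. Only 6 members (5.77%) reached 30 counts in any sample, 1 from 14q32 and 5 from 19q13, against 138 of the other probes (19.9%). No member reached 30 in 3 samples, which 67 other probes (9.65%) did. Of the 1248 member values, 6 were at 30 or above. A single count of 13 has an exact 95% Poisson interval of 6.92 to 22.2, which covers counting error only. Small differences between members were therefore not detectable within 1 sample. Means over the 12 samples carry less counting error, and differences between members in these means were not tested.

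**Figure D1:**
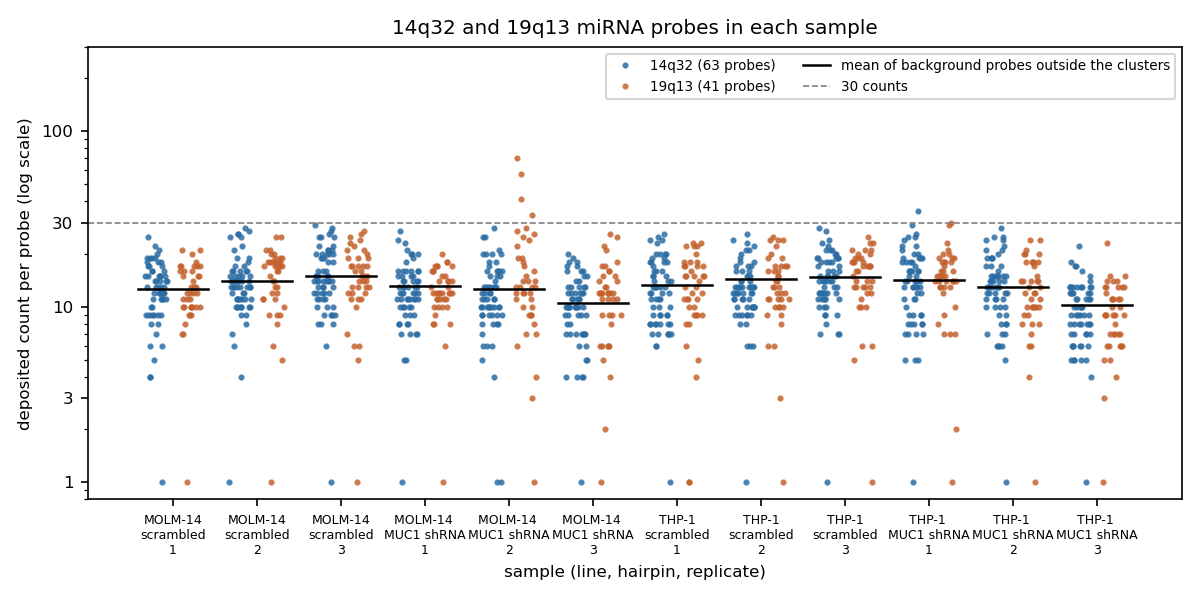
Deposited count of each 14q32 probe (blue) and 19q13 probe (orange) in each of the 12 samples, on a log axis, with the mean of the 536 background probes outside the clusters (black line) and 30 counts (dashed). Both clouds lie around the line in all samples, and 4 of the 6 points at 30 or above belong to silenced MOLM-14 replicate 2.

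The mean of each cluster moved with the background from sample to sample. Divided by the mean of the 536 background probes of the same sample, the mean 14q32 count lay between 0.914 and 1.05 in all 12 samples. In the 4 groups the mean 14q32 count was 13.9 ± 1.29 (SD, n = 2) in scrambled MOLM-14, 11.9 ± 1.16 (SD, n = 3) in silenced MOLM-14, 13.5 ± 0.511 (SD, n = 2) in scrambled THP-1 and 11.96 ± 2.90 (SD, n = 2) in silenced THP-1. For 19q13 these were 13.96 ± 1.64, 13.9 ± 2.87, 13.98 ± 0.354 and 11.7 ± 3.09 in the same order and with the same n. The samples' 14q32 means did not overlap between the groups in MOLM-14, at 10.6 to 12.8 in silenced and 12.95 to 15.4 in scrambled samples, and neither did their ratios to background, at 0.976 to 1.013 in silenced and 1.014 to 1.03 in scrambled samples. The nearest ratios of the 2 MOLM-14 groups were 1.0127 and 1.0144, and whether this gap exceeds counting error was not tested. How often other sets of probes show such a lack of overlap is not given, so it does not set 14q32 apart. Samples of the groups overlapped for 14q32 in THP-1 and for 19q13 in both lines. The background probes were at 13.5 ± 1.34, 12.1 ± 1.41, 14.2 ± 0.239 and 11.9 ± 2.40 in the same order. The largest departure from background was 19q13 in silenced MOLM-14 replicate 2, at 1.36 times background, where the other 11 samples lay between 0.941 and 1.14. Without the 5 probes that reached 30 in any sample, this value was 1.09. A fall was set in advance by that choice, since 4 of these probes reached 30 in this sample alone. The background probes were likewise chosen to stay under 30 in every sample.

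The spread of members over the 12 samples was close to counting error. The dispersion of a probe was taken as its chi-square over degrees of freedom when the 12 counts are set against the samples' background, so that 1 is counting error alone. That background is the sum of the 630 background probes, 94 of which are members. The median dispersion was 1.07 for 14q32, 1.19 for 19q13 and 1.15 for all 798 probes. It was 1.05 for the 536 background probes outside the clusters, which were chosen to stay under 30 counts. Without silenced MOLM-14 replicate 2 these were 1.03, 1.11, 1.08 and 1.02 in the same order. Base composition did not order the levels within a cluster: Spearman's rho between the GC share of a mature miRNA and its mean count was 0.05 over 60 miRNAs of 14q32 and -0.10 over 30 of 19q13. These points share the same 12 libraries and are given as a description.

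Among 14q32 members the highest mean counts belonged to miR-495-3p, miR-493-3p, miR-323b-3p, miR-369-3p and miR-337-3p. miR-495-3p, the member known to be low in KMT2A-rearranged leukaemia, ranked 86 among the 798 probes with a mean of 21.1. It was counted at 18, 25 and 25 in scrambled MOLM-14, 21, 17 and 12 in silenced MOLM-14, 25, 26 and 27 in scrambled THP-1, and 19, 25 and 13 in silenced THP-1. The silenced samples of THP-1 lay at or under the scrambled ones, and those of MOLM-14 overlapped them. miR-493-3p, from the MEG3-near end of the cluster, ranged from 12 in silenced THP-1 to 28 in silenced MOLM-14 replicate 2. miR-369-3p, an AU-rich miRNA, was counted at 19, 26 and 21 in scrambled MOLM-14, 24, 16 and 11 in silenced MOLM-14, 20, 13 and 21 in scrambled THP-1, and 35, 21 and 13 in silenced THP-1. Its 35 was the only 14q32 value at or above 30, and the exact Poisson interval of that count, 24.4 to 48.7, includes the highest of its other counts, 26. miR-323b-3p and miR-337-3p lay just outside 30, each with a highest count of 29.

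The rest of 14q32 was lower. miR-127, whose mouse counterpart directs cleavage of the Rtl1 transcript, had a mean of 14.6 for the 5p and 13.7 for the 3p arm, with no count above 23. miR-494-3p was at 1 in all 12 samples, which 15 probes of the panel were, whereas the 5p arm of the same precursor averaged 11.1. miR-134-5p, which in rat neurons represses the kinase Limk1, averaged 7.50 on its joint probe, and miR-329-3p ranged from 6 to 14. The 5p and 3p probes of miR-323b averaged 9.58 and 20.6.

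At 19q13 the highest mean counts belonged to miR-520f-3p, miR-518b, miR-520a-5p, miR-512-5p and miR-522-3p, from 19.9 down to 16.3, where miR-522-3p tied with miR-520g-3p and the joint miR-519b-5p probe. miR-518b, miR-520a-5p and miR-512-5p stayed at or under 28 in every sample. The lowest were miR-1283, at 1 in all 12 samples, then miR-520a-3p at 6.92, miR-520b at 7.17 and miR-512-3p at 7.67. The 5p probes of miR-520a and miR-512 averaged 18.2 and 17.6. The background of each probe is unknown, so such gaps between the probes of a precursor do not show that its arms differ.

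Of the 5 probes of 19q13 that reached 30 counts in some sample, 4 did so in silenced MOLM-14 replicate 2 alone. miR-520d-3p, which carries the miR-302 and miR-372 family seed, was counted at 8, 10 and 5 in scrambled MOLM-14, 12, 70 and 11 in silenced MOLM-14, 5, 10 and 18 in scrambled THP-1, and 8, 13 and 9 in silenced THP-1. The exact Poisson interval of the 70 is 54.6 to 88.4, above every other value of that probe. The joint miR-519b-5p probe was at 14, 57 and 12 in silenced MOLM-14 and between 5 and 19 in the other 11 samples. miR-520f-3p was at 18, 41 and 26 in silenced MOLM-14 and at most 27 elsewhere. The joint probe of miR-520d-5p, miR-527 and miR-518a-5p, of which miR-520d-5p comes from the same precursor as miR-520d-3p, was at 12, 33 and 12 and at most 24 elsewhere. Its 33 lies just inside 30, and miR-520g-3p, at 29 in silenced THP-1 replicate 1, just outside.

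**Figure D2:**
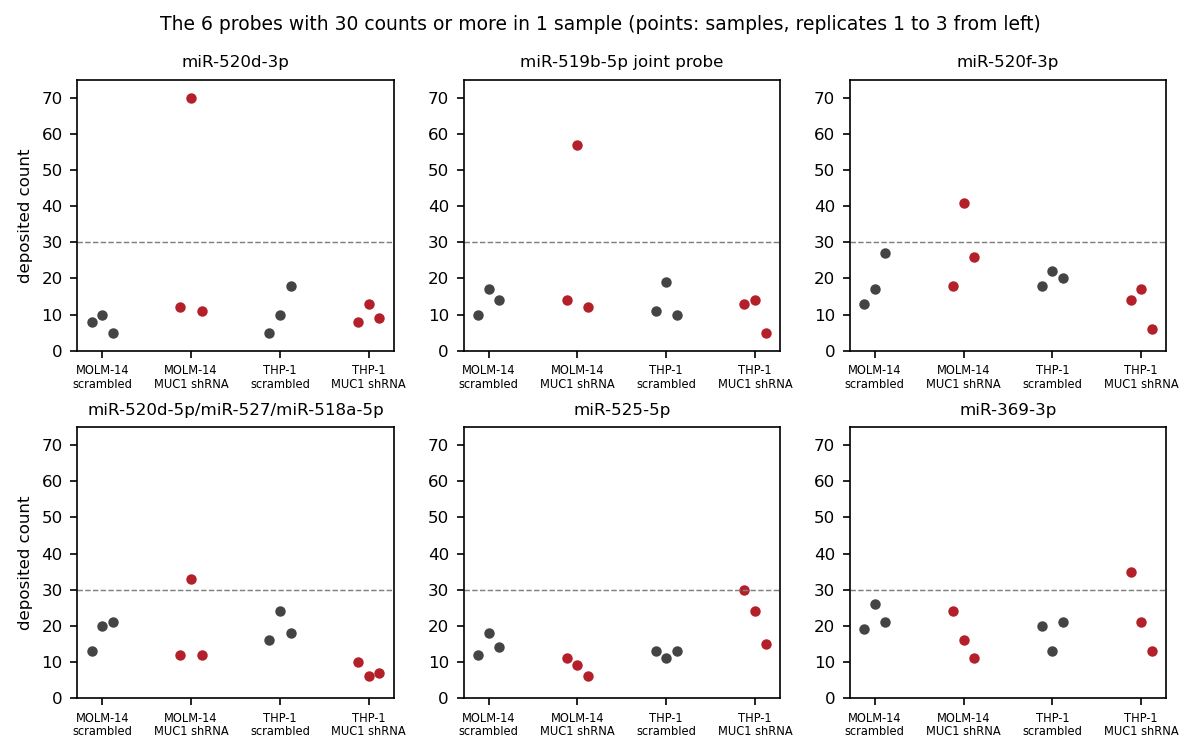
Deposited counts of the 6 members that reached 30 in any sample, by group, each point a sample. Silenced MOLM-14 replicate 2 stands above the rest for miR-520d-3p (70), the miR-519b-5p probe (57), miR-520f-3p (41) and the miR-520d-5p probe (33), while for miR-525-5p and miR-369-3p the highest point belongs to silenced THP-1 replicate 1.

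The seed relatives printed above did not move together in that sample. miR-520a-3p, with the same seed as miR-520d-3p, was at 3 counts and miR-520c-3p at 13, against 70. The joint probe of miR-526a, miR-518c-5p and miR-518d-5p was at 13, against 57 for the miR-519b-5p probe. miR-526a differs by 1 base from the miRNAs of the miR-519b-5p probe, while miR-518c-5p has another seed, CUCUGGA. In the same sample 32 of all 798 probes (4.01%) reached 30 counts where none of the other 11 samples did, 4 of 41 from 19q13 (9.76%), 0 from 14q32 and 28 of the others (4.03%). In each other sample such probes numbered 0 to 8. The part of this library's source name in these counts was not tested. Without it, 2 members reached 30 counts in any sample, miR-369-3p and miR-525-5p, both in silenced THP-1 replicate 1.

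**Figure D3:**
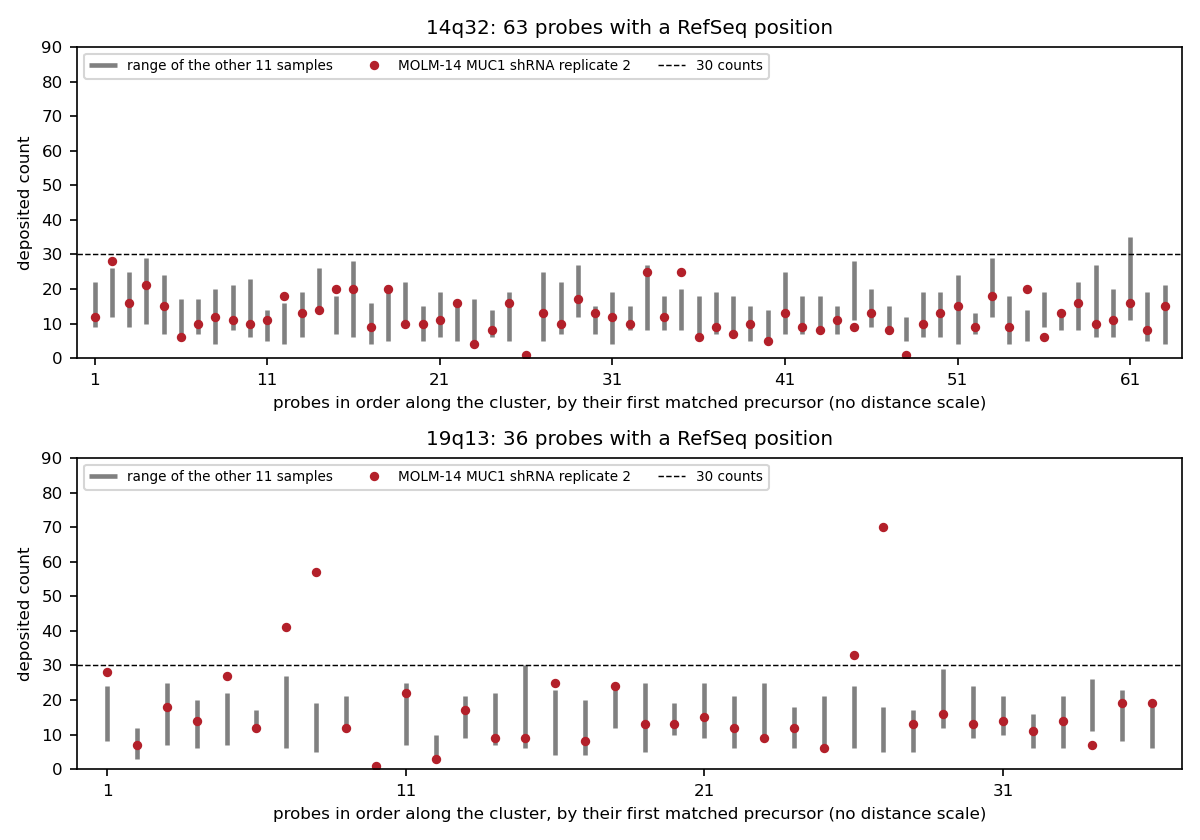
Deposited counts along the 14q32 (top) and 19q13 (bottom) clusters, for probes with a RefSeq position, in genomic order by their first matched precursor and not to distance. Grey bars span the other 11 samples and the points are silenced MOLM-14 replicate 2, which leave the bars farthest at miR-520d-3p (70 counts) and the miR-519b-5p probe (57 counts).

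In MOLM-14, no member changed between the silenced and scrambled samples at an adjusted p under 0.05. edgeR's quasi-likelihood test was fitted over all 798 probes with p-values adjusted by Benjamini-Hochberg over all of them, and it called 1.25% of the probes in this comparison. At an unadjusted p under 0.05 it picked 5 of the 104 members, 4 higher in 19q13 and 1 lower in 14q32. Of all probes it picked 9.15%, with 5.51% higher and 3.63% lower. The median log2 fold change was -0.07 for 14q32 and 0.06 for 19q13, against -0.01 for all probes. The median 95% interval of a member reached 0.71 on the log2 scale, or 1.63-fold, to either side. This interval is unadjusted, so smaller changes of a single member were not detectable and larger ones could also go uncalled.

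Among the members, the largest fitted rises in MOLM-14 were those of 19q13. miR-520d-3p had a log2 fold change of 2.15 ± 0.57 (SE, edgeR adjusted p = 0.0626), which was 0.82 without silenced MOLM-14 replicate 2 and passed the threshold when replicate 1 or 3 was left out instead. The joint miR-519b-5p probe stood at 1.17 ± 0.44 (edgeR adjusted p = 0.284), and at 0.18 without silenced MOLM-14 replicate 2. miR-522-3p was at 16, 26 and 17 counts in silenced and 10, 9 and 13 in scrambled samples. Its groups did not overlap, and it stood at 1.06 ± 0.30 (edgeR adjusted p = 0.0987). The share of all probes whose groups did not overlap is not given, here or in the comparisons below. Lack of overlap alone therefore sets no member apart. The lowest fitted values of 19q13 were -0.57 for miR-525-5p and miR-520c-3p and -0.56 for miR-520e. In 14q32 the extremes were miR-494-5p at 0.76, miR-496 at 0.70 and miR-136-5p at 0.43, and miR-495-5p at -0.73, the miR-134-5p probe at -0.63 and miR-410-3p at -0.57. miR-495-5p, at 7, 10 and 10 counts in silenced and 18, 19 and 14 in scrambled samples, did not overlap either and had an edgeR adjusted p of 0.463.

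In THP-1, miR-525-5p was the single member that passed the threshold, and it rose in the silenced cells. It was counted at 13, 11 and 13 in scrambled and 30, 24 and 15 in silenced THP-1, so the groups did not overlap. The log2 fold change was 1.10 ± 0.27 (SE), with a 95% interval of 0.54 to 1.66 and an edgeR adjusted p of 0.0223. The test called 2.63% of the 798 probes in this comparison, 3 higher (0.376%) and 18 lower. Leaving out any of the 3 scrambled samples, or silenced replicate 1 or 2, ended this call, with edgeR adjusted p between 0.0501 and 0.160. It also ended when the 3 pairs counted as 1 sample were averaged (edgeR adjusted p = 0.169).

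At an unadjusted p under 0.05, 7 members were picked in THP-1, 5 higher and 2 lower, against 9.52% of all probes, with 3.13% higher and 6.39% lower. miR-512-3p, whose seed AGUGCUG overlaps the AGUGC core, was at 4, 3 and 5 counts in scrambled and 12, 10 and 7 in silenced samples. The groups did not overlap, and its log2 fold change was 1.46 ± 0.41 (edgeR adjusted p = 0.0578). Each of these counts lay under the mean of the 536 background probes in its sample. That mean was 13.3 to 14.8 in scrambled and 10.2 to 14.2 in silenced samples. miR-370-5p of 14q32 was at 6, 9 and 8 in scrambled and 19, 12 and 13 in silenced samples, again without overlap, at 1.14 ± 0.34 (edgeR adjusted p = 0.0779). The joint miR-520d-5p probe lay the other way, at 16, 24 and 18 in scrambled and 10, 6 and 7 in silenced samples, at -1.10 ± 0.39 (edgeR adjusted p = 0.217). The remaining extremes were miR-520g-3p at 0.76, miR-539-3p at 0.71 and miR-665 at 0.70, and miR-520a-5p at -0.79, miR-515-5p at -0.62, miR-656-3p at -0.59, and miR-323a-5p and miR-431-5p at -0.49 each. Of these, miR-520a-5p shares the seed UCCAGAG with miR-525-5p and lay the other way. It was at 23, 24 and 19 in scrambled and 16, 10 and 7 in silenced samples (edgeR adjusted p = 0.300). The median log2 fold change was 0.12 for 14q32 and 0.09 for 19q13, against 0.02 for all probes. The scale matters in THP-1: dividing by the total count in place of TMM moved the median of all probes to 0.54 and called 8 members, all of them higher, among 49 of all 798 probes (6.14%).

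**Figure D4:**
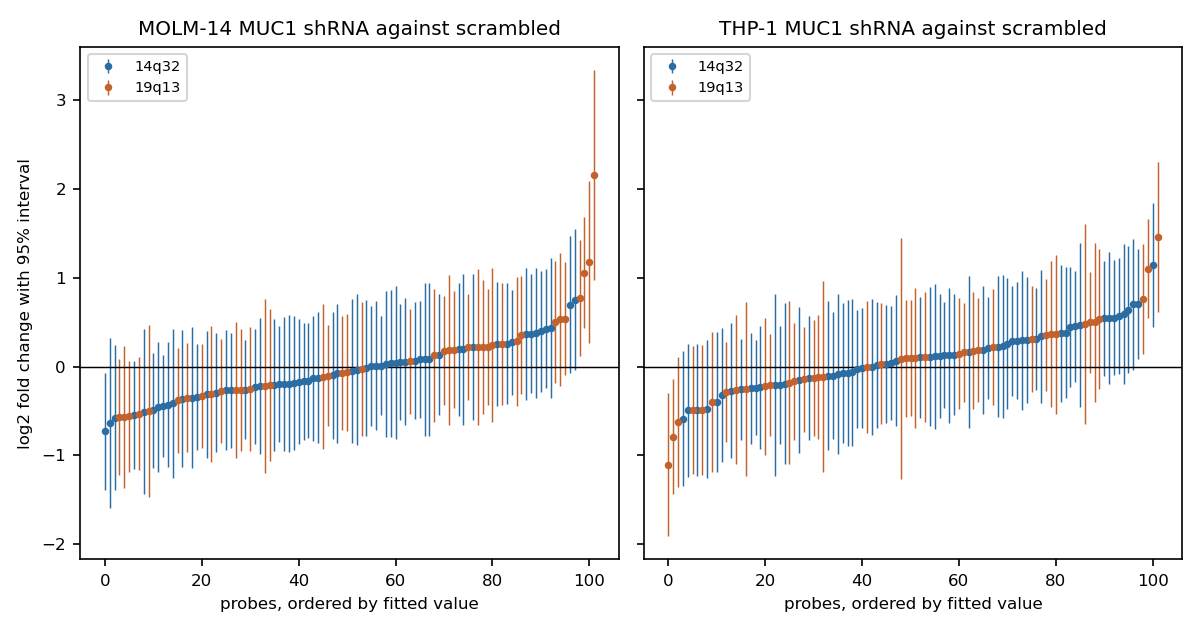
Fitted log2 fold change of silenced over scrambled cells with its 95% interval (y axis) for the 102 members above 1 count, ordered by fitted value (x axis), in MOLM-14 (left) and THP-1 (right), with 14q32 in blue and 19q13 in orange. Most intervals cross the zero line; the highest point is miR-520d-3p in MOLM-14 (2.15) and miR-512-3p in THP-1 (1.46), and miR-525-5p, second in THP-1 among 19q13 members (1.10), passed the adjusted threshold.

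The hairpin effects of the lines were set against each other in the same fit. miR-525-5p differed between the lines by 1.67 ± 0.41 (95% interval 0.81 to 2.53, edgeR adjusted p = 0.0349), with 12, 18 and 14 counts in scrambled and 11, 9 and 6 in silenced MOLM-14, and a MOLM-14 effect of -0.57 ± 0.31. It was the only member called, where the test called 1.88% of all probes and 0.376% in the same direction. The call was lost with any of 9 of the 12 samples left out and when the 3 pairs were averaged (edgeR adjusted p between 0.0502 and 0.214). At an unadjusted p under 0.05 the difference picked 11 members, against 10.9% of all probes. Among these, miR-520d-3p stood at -2.06 and miR-370-5p at 1.37, with edgeR adjusted p of 0.376 and 0.192.

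Scrambled THP-1 and scrambled MOLM-14 did not differ in any member at an adjusted p under 0.05, where the edgeR test called 0.251% of all probes. At an unadjusted p under 0.05 it picked 9 members, against 7.52% of all probes. miR-517a-3p, a placental miRNA of 19q13, was at 9, 11 and 12 counts in scrambled MOLM-14 and 22, 17 and 25 in scrambled THP-1. These did not overlap, with a log2 difference of 0.97 ± 0.29 (edgeR adjusted p = 0.216). miR-517b-3p has the same mature sequence and a probe of its own. That probe was at 12, 15 and 12 in scrambled MOLM-14 and 10, 16 and 15 in scrambled THP-1, so its groups overlapped. miR-512-3p lay lower in THP-1 at -1.11 ± 0.41 and miR-370-5p at -0.95 ± 0.34, with edgeR adjusted p of 0.491 and 0.397. The median member interval reached 0.69 on the log2 scale, or 1.61-fold, to either side. Because the THP-1 hairpin effect uses the same scrambled THP-1 samples, the low scrambled counts of miR-512-3p and miR-370-5p enter both comparisons.

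Related miRNAs outside the clusters were read on the same scale. Of 11 probes for other imprinted or neighbouring miRNAs (miR-675, miR-483, miR-296, miR-298, miR-335 and miR-371 to miR-373), 0 were called by edgeR in any of the 4 comparisons, and only miR-483-3p reached 30 counts, at 104 in silenced MOLM-14 replicate 2 and 8 to 17 elsewhere. Of 10 probes for seed relatives of the 19q13 miRNAs, 5 reached 30 counts in some sample, against 18.0% of all 798 probes. Without silenced MOLM-14 replicate 2, 4 of them did. edgeR called 1 lower in MOLM-14 and 2 lower in THP-1, where it called 1.25% and 2.63% of all probes in either direction. miR-93-5p, of the miR-17 family, was at 33, 74 and 78 counts in scrambled and 12, 19 and 23 in silenced MOLM-14, and at 94 or more in every scrambled and at 25, 22 and 20 in silenced THP-1. The groups did not overlap in either line. It fell by 1.54 ± 0.32 in MOLM-14 and by 2.03 ± 0.32 in THP-1 on the log2 scale (edgeR adjusted p = 0.0229 and 0.000191). The joint miR-20a-5p and miR-20b-5p probe fell by 1.11 ± 0.30 in THP-1 (edgeR adjusted p = 0.0472), from 35, 46 and 37 counts in scrambled to 20, 15 and 12 in silenced samples. In THP-1 the unscaled summed count of the 10 relatives was 246 to 295 in scrambled and 129 to 152 in silenced samples. Total counts over all probes were also lower in silenced THP-1, at 9002 to 12613 against 17123 to 20418 in scrambled. The median log2 fold change of the 10 relatives in THP-1 was 0.05.

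Marker miRNAs of cell types were read in the same samples. Of 7 myeloid and haematopoietic marker probes, 6 reached 30 counts in some sample and 5 in at least 3 samples. The marker that did not reach 30, miR-142-3p, was at 10 to 23 counts, within the range of the background probes. edgeR called miR-150-5p higher in silenced MOLM-14, and miR-155-5p and miR-223-3p lower in silenced THP-1. Of all probes it called 1.25% in MOLM-14 and 2.63% in THP-1. The unscaled summed count of the 7 markers was 264 to 277 in scrambled and 112 to 145 in silenced THP-1. In MOLM-14 it was 185 to 290 in scrambled and 257 to 312 in silenced samples. Of 14 markers of other cell types, 1 reached 30 counts, miR-122-5p of liver, at 52 in silenced MOLM-14 replicate 3 and at 1 elsewhere. The part of these levels in the member results was not tested.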

How the data were processed

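The deposited table holds 1 count per probe and sample, read as raw probe counts from the values themselves, which are whole numbers whose totals vary from sample to sample. How the authors extracted, corrected or scaled them is not stated in the labels or the table. Per the labels' protocols, RNA was isolated with a column kit and run on a NanoString miRNA panel, which counts barcoded probes with no amplification step. Samples were grouped by title and transduction label.

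All 798 probes and 12 samples were fitted, with no filter on counts, with 4 group means in edgeR 4.0.16 (R 4.3.3), by its quasi-likelihood test with TMM scaling. It gave the hairpin effect in MOLM-14 and in THP-1, their difference, and scrambled THP-1 against scrambled MOLM-14. Benjamini-Hochberg adjustment ran over all 798 probes, the threshold was 0.05, and the code was tested on simulated counts. The ± beside a log2 fold change is its standard error. A fold change of a probe near background understates a change in RNA, since background counts enter both groups. Samples of a group were taken as 1 in means ± SD where a chi-square test over the probes gave a p above 0.05. The same replicate numbers did not pair samples across groups: deviations from the group means correlated at -0.06 to 0.12 over 9 pairs, with 2 above 0.1.

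The members, lists and tests were chosen with earlier results of these data known. Members are named where they passed the threshold, reached 30 counts in any sample or lay just under, had the highest 5 or lowest 3 means of a cluster, had the 3 largest fitted rises or falls of a cluster in a line, or are the other arm of such a member. Members named outside this rule (miR-127, miR-517a-3p, miR-517b-3p and the seed relatives beside printed sequences) were added after their values were seen. Alternatives were total count and background scaling, DESeq2 (1.42.0), limma (3.58.1) on log2(count + 1), a filter at 30 counts in 3 samples, 10 counts subtracted, fits of the compared groups alone, a replicate block, averaged duplicate pairs and each sample left out.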

Additional observations from a re-analysis of the deposited data

Results flagged for a closer look

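The hairpin effect on miR-525-5p differed between the lines: it stood at 1.10 ± 0.27 on the log2 scale in THP-1 and at -0.57 ± 0.31 in MOLM-14, a difference of 1.67 ± 0.41 (SE, edgeR quasi-likelihood adjusted p = 0.0349). The call on the difference was lost in 10 alternative settings, 9 of them with 1 sample left out. All 3 silenced THP-1 samples, at 30, 24 and 15 counts, lay above the scrambled ones at 13, 11 and 13, and all 3 silenced MOLM-14 samples, at 11, 9 and 6, lay under the scrambled ones at 12, 18 and 14. The mean of the 536 background probes was 10.2 to 14.2 counts in the silenced and 13.3 to 14.8 in the scrambled THP-1 samples. In MOLM-14 it was 10.4 to 13.1 in silenced and 12.5 to 15.0 in scrambled samples. miR-525-5p lay under the background mean of its sample in every silenced MOLM-14 and scrambled THP-1 sample, and above it in every silenced THP-1 sample.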

How the results depend on the processing

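In the reported fits 0, 1, 1 and 0 members were called for MOLM-14, THP-1, the difference and the scrambled lines, with 10, 21, 15 and 2 calls over all 798 probes. Total count scaling called 1, 8 and 3 members in the first 3 comparisons (24, 49 and 22 calls over all probes) and moved the median of all probes to 0.54 in THP-1, 0.50 in the difference and -0.22 in the scrambled lines. Subtracting 10 counts called 1 member in MOLM-14 and 2 in the difference (16 and 29 calls), and in THP-1 replaced miR-525-5p by the joint miR-520d-5p probe. limma called 2 members in THP-1 (20 calls), and 1 probe in all in MOLM-14. Fitting only the compared groups called 4 members in THP-1 (39 calls) and 1 probe in all in MOLM-14. Background scaling called 5 probes in MOLM-14 and 1 in the scrambled lines. Averaging the 3 pairs counted as 1 sample called 0 members in THP-1 and 0 in the difference, with 2, 15, 0 and 0 calls over all probes in the 4 comparisons. DESeq2 called 0 members in the difference, but gave no adjusted p for 75, 104 and 88 members in MOLM-14, THP-1 and the difference, so in THP-1 it gave no value. A filter at 30 counts in 3 samples left no member to test. With the replicate block 1 member was called in MOLM-14, miR-520d-3p, at 2.06 (edgeR adjusted p = 0.0191), and calls over all probes stayed within 1.5 times (12, 22, 17 and 3). Leaving out each sample in turn gave 0 to 3 members in MOLM-14, 0 to 2 in THP-1, 0 to 1 in the difference and 0 in the scrambled lines, with 1 to 30, 17 to 31, 10 to 29 and 1 to 5 calls over all probes. The 3 members and 30 calls in MOLM-14 came without silenced replicate 1. The call of miR-525-5p was lost in 7 settings in THP-1 and in 10 in the difference, with its sign kept in all. miR-520d-3p passed in MOLM-14 in 5 settings. Members at 30 counts or more in any sample numbered 6, against 59 at 20 counts and 2 at 50, and 2 to 6 with a sample left out. The cause of these shifts was not tested.

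With 3 samples a group in the fits and counts near 13, a change under about 1.63-fold of a single member could not be seen. That value is a median unadjusted 95% interval in MOLM-14, and larger fitted changes also went uncalled. In the reported THP-1 fit, miR-512-3p was not called at a log2 fold change of 1.46. Background was taken from dim probes, since no control probes were used here. Fewer molecules of a miRNA and a probe at its own background cannot be told apart, and whether the deposited counts are raw for every probe is not known. Silenced MOLM-14 replicate 2 decided 4 of the 6 members at 30 counts.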
